A study of Mus musculus with 11 samples.

Results

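The genes described here encode the parts that carry a signal from a G protein-coupled receptor to cyclic AMP (cAMP) and cyclic GMP (cGMP) and end it again. They were chosen by symbol alone, as every gene in the count files named as a regulator of G protein signalling (Rgs, without Rgs5), a G protein alpha, beta or gamma subunit (Gna, Gnb, Gng), an adenylyl cyclase (Adcy), a cyclic nucleotide phosphodiesterase (Pde) or a subunit of the cAMP-dependent protein kinase PKA (Prka). The rule found 89 of 32531 genes, namely 20 Rgs, 16 Gna, 5 Gnb, 10 Gng, 10 Adcy, 22 Pde and 6 Prka genes. Levels are in CPM, counts scaled to a common library size. Together the members held 14961 to 16976 CPM in the immunopurified libraries, 15604 CPM in the input and 15136 CPM in the unbound library.

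RNA came from adult mice carrying the Glt25d2-EGFP/Rpl10a transgene of line DU9, in a study of short-access intravenous self-administration, and every group carries this transgene. It adds a green fluorescent tag to a ribosomal protein under regulatory DNA of Glt25d2 (now Colgalt2), a gene active in layer 5 pyramidal neurons, so the tagged cells are those in which this 1 line switches the transgene on. Immunopurified (IP) RNA is what an antibody to the tag pulls down with the ribosomes, unbound is the RNA that stayed behind, and input was sampled before the antibody was added. The groups were 3 IP libraries after cocaine self-administration, 3 of yoked controls and 3 after saline self-administration, with 1 unbound library from the cocaine group and 1 input library from the saline group. The labels do not say what the yoked animals received, their sex or whether a library stands for 1 animal or a pool, so p-values measure the spread between libraries, which may be technical. The label names cerebral cortex as the tissue, but the extraction protocol speaks of whole striatum. Each group ran on a sequencing lane of its own, so lane and group cannot be told apart.

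A receptor occupied by its ligand loads a G protein alpha subunit with GTP, and alpha and beta-gamma then act separately until the alpha subunit hydrolyses the GTP, a step that RGS proteins speed up. Alpha subunits of the Gs class stimulate adenylyl cyclase and those of the Gi class inhibit it. Cyclases make cAMP, which releases the catalytic subunits of PKA from the regulatory ones, and phosphodiesterases break cAMP or cGMP down. In forebrain neurons dopamine, acetylcholine, glutamate and opioid receptors signal through these proteins, and Gnal, Adcy5, Rgs9, Pde10a, Pde1b and Gng7 are best known from the striatum.

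PKA can also reach the genome by phosphorylating CREB, which binds the cAMP response element TGACGTCA or its shorter form TGACGT. Windows of 30 bases around each match are shown because they mark the members whose own promoters carry the letters this pathway acts through. RefSeq promoters (GRCm38.p6, 250 bases before to 50 after a start) were given for 68 of the 89 genes as 118 promoters, and both strands were searched. The full element stood in 2 of these 118 promoters, both of Prkar1a and both covering the same site, and in 588 of all 32851 promoters (1.79%). The shorter form, which the full one contains, stood in 7 of the 118 (5.93%), from 6 genes, and in 2468 of all promoters (7.51%). The windows follow, each 5′ to 3′ on the strand of its gene, with the match in capitals (TGACGT or its reverse complement ACGTCA, and for Prkar1a the full element).
Prkar1a, chr11:109650889-109650918, plus strand: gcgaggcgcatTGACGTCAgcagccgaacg
Rgs2, chr1:144004318-144004347, minus strand: gatgcggcgcctACGTCAacagcgccctcg
Pde4b, chr4:102421508-102421537, plus strand: tgatttggctgcACGTCAattttctcatct
Pde4a, chr9:21184038-21184067, plus strand: tggcacagctcgACGTCAggctggggagga
Adcy9, chr16:4420505-4420534, minus strand: cggacccggcggTGACGTgcgcgggccgcg
Gng4, chr13:13784255-13784284, plus strand: gtgacgcaccagTGACGTcggcggcggcgg
Counted from the start site, the matches begin at position −186 in Rgs2 and at −51 to −24 in Pde4a, Pde4b, Adcy9 and Gng4. The Prkar1a site begins at −49 from the start used for its window and at 38, downstream, from another annotated start. A match is a description of these letters and not evidence of binding.

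Libraries held 20926712 to 53862653 counts in genes, so counting error is small for most members. The 3 IP libraries numbered 1 stood apart from the other 6 in marker genes that are not members. The summed level of 11 layer 5 markers was 1268, 1255 and 1423 CPM in the libraries numbered 1 of cocaine, yoked and saline, 669 to 864 CPM in the 6 others, 714 CPM in the input and 761 CPM in the unbound library. The summed level of 8 astrocyte markers was 965 to 1358 CPM in the libraries numbered 1 and 2273 to 2830 CPM in the others. Nuclear noncoding RNAs (5 genes) were at 179 to 386 CPM in them and at 2362 to 7180 CPM in the others. The input, with 2427 CPM for astrocyte markers and 5098 CPM for nuclear RNAs, lay within the range of numbers 2 and 3 in all 3 sums. Markers of striatal projection neurons (14 genes) summed to 389 to 426 CPM in cocaine IP, 357 to 368 CPM in yoked IP and 313 to 411 CPM in saline IP, and 384 CPM in the input. Their defining genes were at 0 in no library, with Drd1 at 16.9 to 26.1 CPM, Adora2a at 1.59 to 6.78 CPM and Ppp1r1b at 85.6 to 142 CPM in IP. In bulk RNA such as this, fewer cells of a type and less RNA per cell cannot be told apart.

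Of the 89 members, 79 passed the filter on low counts over the 9 IP libraries and were tested, at mean IP levels of 0.221 to 1647 CPM. The other 10 averaged at most 0.196 CPM in IP and did not pass it, so the contrasts among IP libraries leave them out. They are the alpha subunits Gna14, Gna15 and Gnat3, the RGS genes Rgs1, Rgs18 and Rgs21, the beta subunit Gnb3, the photoreceptor phosphodiesterases Pde6a and Pde6b, and the cyclase Adcy4. Rgs21 and Gnat3 had no count in any of the 11 libraries. A mean IP level of 5 CPM or more was reached by 65 members.

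Levels between genes are given as mean IP CPM per kilobase (kb) of annotated exon. Among alpha subunits Gnai1, of the inhibitory class, stood highest at 241 CPM per kb. Next came Gnas, the widespread stimulatory subunit, at 147 and Gnao1, the main inhibitory-class subunit of neurons, at 125. Gnal, the stimulatory subunit of striatal and olfactory neurons, was at 28.9 CPM per kb, below Gnas. The Gq class subunits, which activate phospholipase C beta, were at 89.7 CPM per kb for Gnaq and 24.99 for Gna11. The G12 class subunits were at 23.6 for Gna13 and 3.29 for Gna12. Counts for Gnas may include reads of the overlapping Nespas transcript, and those for Gnal reads of Mppe1, since the strand setting of the counting is not given.

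Gnb1 led the beta subunits at 304 CPM per kb, and Gnb5, the partner of the R7 class of RGS proteins, followed at 65.9. Among gamma subunits Gng3 was at 231 CPM per kb, Gng2 at 90.4 and Gng7, which pairs with Gnal in the striatum, at 30.3. Rgs4, which acts on Gi and Gq class subunits, had the highest level per length of all 89 members at 337 CPM per kb. Rgs2, an inhibitor of Gq class signalling, was at 49.1, Rgs17 of the RZ class at 36.4, Rgs7 of the R7 class at 32.1 and Rgs9, an R7 gene known for its striatal form, at 9.79. Members of 1 class could differ widely, as Rgs16 of the R4 class, like Rgs4, was at 2.41 CPM per kb.

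Adcy1, the calcium-stimulated cyclase of cortical and hippocampal neurons, led its family at 45.1 CPM per kb, followed by Adcy9 at 17.99 and Adcy2 at 14.1. Adcy5, the main cyclase of the striatum, was at 4.49 CPM per kb. Pde1a, a calmodulin-dependent enzyme that splits both cAMP and cGMP, led the phosphodiesterases at 130.1 CPM per kb. Pde2a, Pde1b and Pde10a, which also act on both, were at 26.8, 15.997 and 13.1, and the cAMP-specific Pde4a, Pde4b and Pde4d at 19.8, 16.5 and 13.8. Of the PKA subunits, Prkar1a was at 303, Prkar1b at 174, Prkacb at 112 and Prkaca at 92.6 CPM per kb, while the type II regulatory subunits Prkar2b and Prkar2a were at 27.2 and 11.6.

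**Figure D1:**
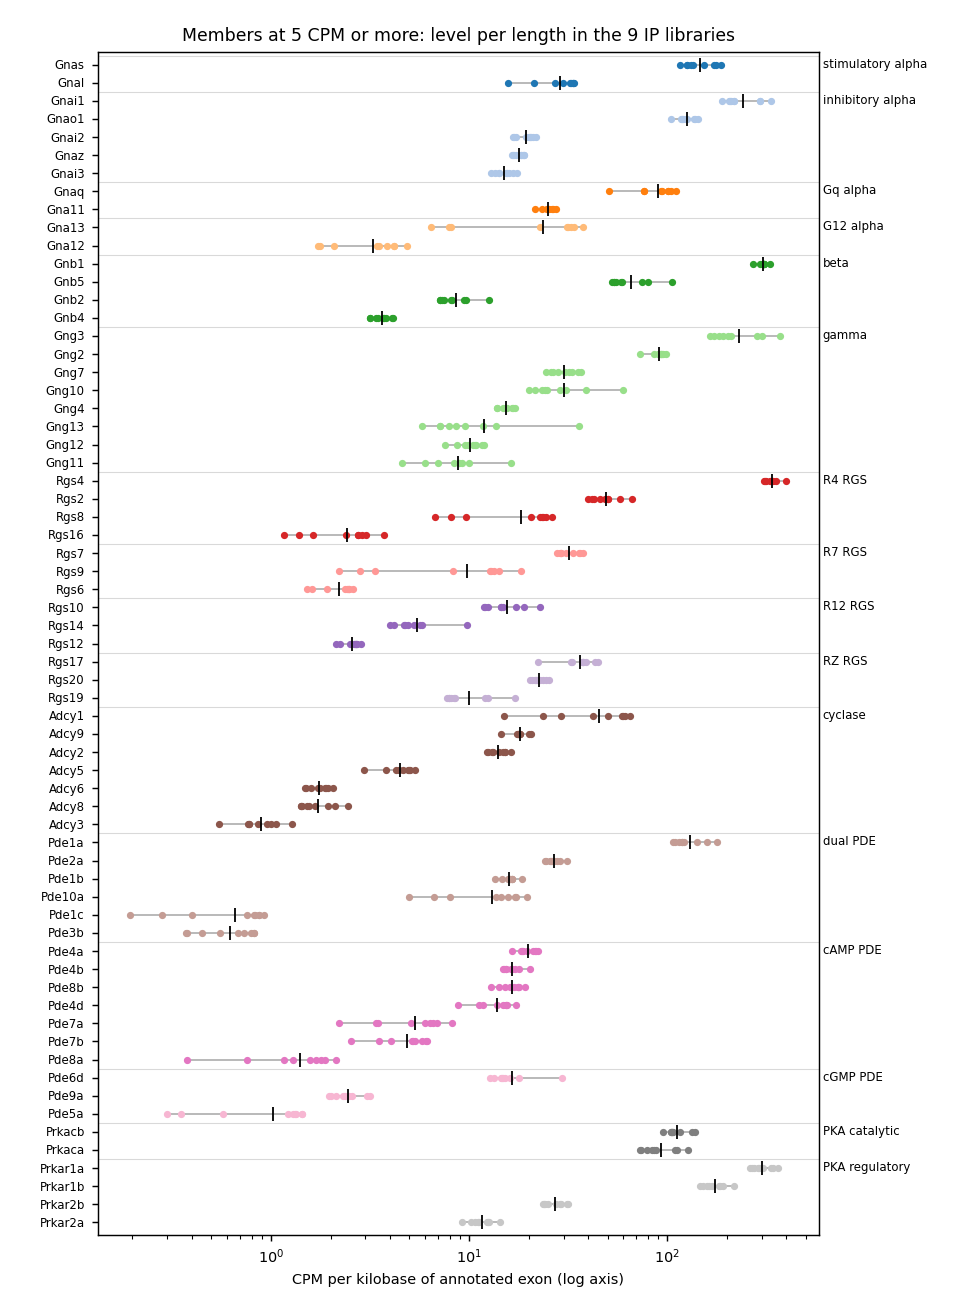
Level of the 65 members with a mean IP level of 5 CPM or more, as CPM per kilobase of annotated exon on a log axis, 1 line per gene and grouped by role. Points are the 9 IP libraries, the black tick is their mean and the grey line their range. Rgs4, Gnb1 and Prkar1a have the highest means, and wide lines mark genes such as Rgs9 and Gna13.

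The plot of level per length shows that some members varied little and others several-fold. The 9 IP libraries kept Gnb1 within 1163 to 1408 CPM and Rgs4 within 958 to 1235 CPM, but spread Rgs9 over 14.1 to 117 CPM and Gna13 over 41.4 to 242 CPM.

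Cocaine against saline asks whether IP RNA of these genes differed after cocaine self-administration. No member was called at an adjusted p under 0.05 by edgeR's quasi-likelihood test, 0 of 79 members and 0 of 16417 genes (0% called). At an unadjusted p under 0.05 there were 0 members and 168 genes, and DESeq2 called 0 of either (0 members and 289 genes at an unadjusted p under 0.05). The edgeR fit had no term for replicate number, so differences between numbers, described below, count as spread within each group. With number as a block, edgeR again called 0 members and 0 genes. At an unadjusted p under 0.05 there were then 4 members (5.06%), beside 12.3% of all genes. In the fit without the block, the members' median log2 fold change was −0.00, beside 0.03 over all genes, with 39 of 79 members above 0.

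Rgs4, the member with the highest level per length, had 1057, 1098 and 1235 CPM in cocaine IP, 1019, 958 and 964 CPM in yoked IP and 977, 1033 and 1044 CPM in saline IP. All 3 cocaine libraries were above all 3 saline libraries and all 3 yoked libraries, by little. Its log2 fold change was 0.15 ± 0.15 (SE) over saline and 0.21 ± 0.15 over yoked, neither of which was called. Rgs4 was the only 1 of 79 members with cocaine above saline without overlap, beside 3.11% of all genes tested, and 3 members lay below without overlap, beside 2.28%. These 3, Rgs17, Adcy9 and the low Gnat1, were chosen like Rgs4 after their values were seen.

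The largest fold change over saline among members of 5 CPM or more was that of Gng13, a gamma subunit known from taste and olfactory cells. It had 27.9, 6.62 and 4.48 CPM in cocaine IP, 9.06, 5.52 and 5.54 CPM in yoked IP and 10.5, 6.09 and 7.36 CPM in saline IP. A single library, cocaine replicate 1, stood above the rest, and the other cocaine libraries lay within or below the range of saline. Its log2 fold change was 0.70 ± 0.61 (SE) over saline with an adjusted p of 0.99977. Without cocaine replicate 1 it was −0.53, and without the 3 libraries numbered 1 it was −0.28. Over yoked it was 0.96 ± 0.62, and −0.28 without cocaine replicate 1. Exons of Gng13 overlap those of Chtf18 on the other strand.

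Next came Gng11, a gamma subunit better known from non-neuronal cells, at 0.51 ± 0.35 (SE), and Rgs14, an R12 class gene of hippocampal and cortical pyramidal cells, at 0.44 ± 0.30. Rgs14 had 41.4, 20.1 and 20.9 CPM in cocaine IP, 24.5, 22.3 and 17.7 CPM in yoked IP and 23.9, 19.9 and 16.96 CPM in saline IP. Here too cocaine replicate 1 was the highest library, and cocaine replicates 2 and 3 overlapped saline.

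At the other end stood Adcy1 at −0.41 ± 0.52, Rgs17 at −0.38 ± 0.22 and Rgs9 at −0.26 ± 0.80 (SE; adjusted p = 0.99977 for each by edgeR). Adcy1 had 187, 627 and 531 CPM in cocaine IP, 364, 763 and 815 CPM in yoked IP and 295, 743 and 752 CPM in saline IP. The spread between replicate numbers was wider than that between groups, yet within each number cocaine was the lowest of the 3 groups. The log2 differences within numbers 1, 2 and 3 were −0.66, −0.24 and −0.50 over saline and −0.96, −0.28 and −0.62 over yoked. Rgs17, an RZ class regulator of Gi and Gz subunits, had 184, 307 and 275 CPM in cocaine IP, 270.3, 313 and 373 CPM in yoked IP and 314, 325 and 361 CPM in saline IP. The cocaine libraries lay below those of saline without overlap but overlapped those of yoked. Rgs9 took opposite signs within numbers, at 0.36, −0.10 and −0.64.

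Other steps of the pathway did not pass the test either. The stimulatory subunits were at 0.07 ± 0.23 for Gnas and −0.10 ± 0.30 for Gnal (log2, SE), and the inhibitory Gnai1 and Gnao1 at −0.08 ± 0.26 and −0.11 ± 0.17. The PKA catalytic subunits were at 0.12 ± 0.25 for Prkaca and −0.09 ± 0.19 for Prkacb. Among phosphodiesterases, Pde10a was at −0.26 ± 0.51, Pde1b at 0.13 ± 0.15, Pde2a at −0.01 ± 0.16 and Pde4b at 0.11 ± 0.17. The other members with a response element match shown above were at 0.01 ± 0.19 for Prkar1a, −0.19 ± 0.15 for Pde4a, −0.12 ± 0.15 for Adcy9, 0.01 ± 0.15 for Gng4 and 0.20 ± 0.19 for Rgs2. Rgs2 had 241, 181 and 182 CPM in cocaine IP, 176, 155 and 144 CPM in yoked IP and 209, 165 and 151 CPM in saline IP. All 3 cocaine libraries exceeded all 3 yoked ones in Rgs2 but overlapped those of saline.

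The yoked controls were also compared with each of the other IP groups, so these contrasts share libraries with the first. No member and no gene was called in either (0% called) by edgeR or by DESeq2. For cocaine against yoked, 1 member and 182 genes had an unadjusted p under 0.05 with edgeR and 1 member and 318 genes with DESeq2. For yoked against saline these were 0 members and 66 genes with edgeR and 0 members and 132 genes with DESeq2. The members' median log2 fold change was −0.03 in cocaine against yoked, beside 0.01 over all genes, and 0.01 in yoked against saline, beside 0.00. In yoked against saline the extremes were Adcy3 (0.37 ± 0.28), Gna12 (0.26 ± 0.43) and Pde7a (0.23 ± 0.45) above, and Gng10 (−0.36 ± 0.39), Rgs10 (−0.32 ± 0.25) and Gng13 (−0.26 ± 0.61) below. No member separated the yoked from the saline libraries without overlap, beside 2.14% of genes above and 2.15% below. These fits too had no term for replicate number. With number as a block, edgeR called 0 members and 0 genes in both contrasts. In cocaine against yoked, 16 members (20.3%) then had an unadjusted p under 0.05, beside 18.3% of all genes.

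In cocaine against yoked, Gng13, Gng11 and Gng10 had the highest log2 fold changes (0.96 ± 0.62, 0.66 ± 0.35 and 0.50 ± 0.39) and Adcy1, Rgs9 and Pde7a the lowest (−0.53 ± 0.52, −0.49 ± 0.80 and −0.41 ± 0.45; adjusted p = 0.972 for each). Without overlap, 2 members lay above (Rgs4 and Rgs2, beside 3.08% of genes) and 1 below (Adcy6, beside 2.55%).

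**Figure D2:**
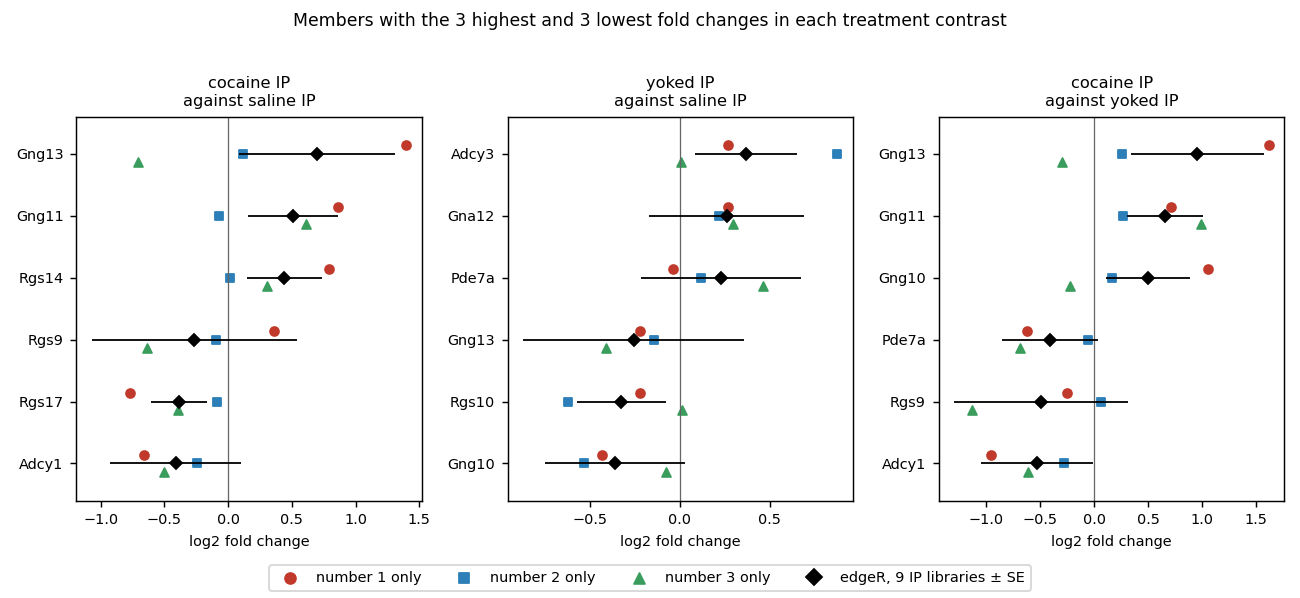
Log2 fold changes of the members with the 3 highest and 3 lowest values in each treatment contrast, with a panel per contrast. Black diamonds with bars are edgeR estimates with their SE, and coloured symbols are the differences between the 2 libraries of the same replicate number. For Gng13 in cocaine against saline, number 1 lies at 1.40 and number 3 at −0.71, and for Adcy1 all 3 numbers lie below 0.

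Within replicate numbers 1, 2 and 3, the members' median log2 difference was −0.11, −0.02 and −0.02 for cocaine against saline, −0.20, 0.06 and 0.05 for cocaine against yoked, and 0.04, −0.06 and 0.02 for yoked against saline. The sign of the median depended on the number except in cocaine against saline. Layer 5 marker sums of the groups overlapped, at 689 to 1268 CPM in cocaine, 669 to 1255 CPM in yoked and 774 to 1423 CPM in saline IP, and their part in these contrasts was not tested.

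Replicate number gave calls among the members where treatment gave none. Libraries numbered 1 were set against those numbered 2 and 3 because earlier results of these data had shown them apart, so the contrast describes how the members took part in a known difference. With treatment as a term in the fit, edgeR's test over both degrees of freedom of number called 40 of 79 members, beside 47.7% of 16417 genes. The separate contrast of number 1 against numbers 2 and 3 in the same fit called 22 members higher in the libraries numbered 1 (27.6% of all genes) and 27 lower (27.7%). The share of members called, 49 of 79, was near the 55.3% of all genes. At least 2-fold, 2 were higher (3.09% of genes) and 13 lower (13.9%). The members' median log2 fold change was −0.04, beside 0.01 over all genes. Without overlap between the 3 libraries numbered 1 and the other 6, 17 members lay above (22.4% of genes) and 25 below (24.1%). Number 3 against number 2 called 0 members and 0 genes with edgeR (1 member and 320 genes at an unadjusted p under 0.05) and 0 members and 8 genes with DESeq2.

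Among alpha subunits the stimulatory and inhibitory classes held members called in both directions, and those of the G12 and Gq classes that were called were lower. Gna13 had 41.4, 52.2 and 50.8 CPM in the libraries numbered 1 of cocaine, yoked and saline, against 146 to 242 CPM with a median of 207 in the other 6. The ranges were far apart, and the input, at 198 CPM, stood with numbers 2 and 3. Its log2 fold change was −2.08 ± 0.12 (SE; adjusted p = 1.58e-08 by edgeR). Gna13 lies on chromosome 11 from 109362831 to 109401369 (GRCm38), and an antisense transcript, Gm11696, overlaps it. Gna12, of the same class, was lower as well (5.90 to 7.12 CPM in number 1 and 11.7 to 16.6 CPM in numbers 2 and 3).

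Gnas rose by 0.45 ± 0.10 (SE) on the log2 scale in the libraries numbered 1 (1937 to 2089 CPM against 1303 to 1708 CPM) while Gnal fell (−0.63 ± 0.14; 175 to 304 CPM against 335 to 376 CPM), so the widespread and the striatal stimulatory subunit changed in opposite directions. Gnai1 rose (0.56 ± 0.10). It had 924, 918 and 1044 CPM in number 1 of cocaine, yoked and saline, against 593 to 682 CPM with a median of 656 in the other 6, without overlap. Gnao1 was not called (0.05 ± 0.12), and Gnaq fell (−0.58 ± 0.12; 316 to 475 CPM against 575 to 682 CPM).

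Of the beta subunits tested, 2 of 4 rose and 0 fell, beside 27.6% of all genes called higher and 27.7% lower. Gnb5 had 331, 233 and 248 CPM in number 1 of cocaine, yoked and saline, against 164 to 184 CPM with a median of 169.6 in the other 6, a log2 fold change of 0.64 ± 0.10 (SE; adjusted p = 9.59e-05 by edgeR). Gnb1, the most abundant per length, did not pass the test (0.01 ± 0.10; 1293 to 1317 CPM against 1163 to 1408 CPM). Of the 10 gamma subunits 4 rose and 2 fell, beside the same shares of all genes. Gng3, a neuronal subunit, had 607, 465 and 493 CPM in number 1, against 271 to 345 CPM with a median of 307 in numbers 2 and 3. No library overlapped, and its log2 fold change was 0.75 ± 0.10 (adjusted p = 3.38e-05 by edgeR). Gng13 (1.29 ± 0.25), Gng10 (0.78 ± 0.16) and Gng11 (0.66 ± 0.17) rose too, Gng13 and Gng11 on low levels. Cocaine replicate 1 was the highest IP library for all 3. Exons of Gng3 overlap those of Bscl2 on the other strand.

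The RGS genes held the lowest fold change of all members and also genes that rose. Rgs9 had 18.1, 21.5 and 14.1 CPM in the libraries numbered 1 of cocaine, yoked and saline, against 52.96 to 117 CPM with a median of 83.8 in the other 6. Its log2 fold change was −2.24 ± 0.18 (SE; adjusted p = 2.44e-07 by edgeR), and the input was at 84.1 CPM. Rgs9 lies on chromosome 11 from 109225355 to 109298129 (GRCm38) on the minus strand, the chromosome that also holds Gna13. Rgs8, an R4 class gene, had 64.5, 93.1 and 78.05 CPM in number 1, against 198 to 251 CPM with a median of 226 in numbers 2 and 3 (−1.53 ± 0.11). Both genes stood apart from numbers 2 and 3 in every library.

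Rgs19 (0.76 ± 0.11; 26.8 to 38.2 CPM against 17.2 to 18.9 CPM), Rgs14 (0.57 ± 0.14; 23.9 to 41.4 CPM against 16.96 to 22.3 CPM) and Rgs2 (0.35 ± 0.10; 176 to 241 CPM against 144 to 182 CPM) rose. The call for Rgs2 was lost without saline replicate 1 (adjusted p = 0.0567). Rgs4 did not pass the test (−0.05 ± 0.10; 977 to 1057 CPM against 958 to 1235 CPM). By class, 2 of 6 R4 genes rose and 3 fell, and 1 of 4 R7 genes rose and 2 fell. In the R12 and RZ classes, with 3 tested genes each, 1 rose in both and 1 fell in the RZ class. These small counts stand beside 27.6% of all genes called higher and 27.7% lower.

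Of 9 cyclases tested, 2 rose and 2 fell, beside 27.6% of all genes called higher and 27.7% lower. Adcy1 had 187, 364 and 295 CPM in number 1 of cocaine, yoked and saline, against 531 to 815 CPM with a median of 747 in the other 6, with the input at 628 CPM. Its log2 fold change was −1.36 ± 0.12 (SE; adjusted p = 5.52e-07 by edgeR). Adcy5 fell by less (−0.40 ± 0.11; 21.1 to 31.7 CPM against 30.9 to 38.5 CPM), and Adcy8, another calcium-stimulated cyclase, was called higher (15.9 to 19.98 CPM against 11.5 to 13.6 CPM).

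Of the 8 phosphodiesterases that act on cAMP alone 5 fell and 0 rose, with a median of −0.43, and of the 8 that act on both nucleotides 4 fell and 1 rose, with a median of −0.87. Of the 4 tested genes of the cGMP class 1 fell and 2 rose, with a median of 0.44. Of all genes, 27.7% were called lower and 27.6% higher. Pde10a had 63.8, 103 and 85.6 CPM in number 1, against 176 to 252 CPM with a median of 211 in numbers 2 and 3 (−1.34 ± 0.13; adjusted p = 1.16e-06 by edgeR). Pde1c (−1.56 ± 0.16), Pde5a (−1.75 ± 0.17), a cGMP enzyme, and Pde8a (−1.21 ± 0.27) fell on low levels. Pde1a was the member of the dual group that rose, with 854, 959.8 and 1072 CPM in number 1, against 643 to 729 CPM with a median of 703 in numbers 2 and 3 (0.47 ± 0.10). Pde1b, Pde2a and Pde4b did not pass the test (−0.08 ± 0.11, 0.15 ± 0.10 and 0.01 ± 0.12), although Pde2a was called higher without cocaine replicate 1 (adjusted p = 0.0299). Pde6d, called higher at 34.95 to 63.99 CPM against 27.9 to 33.04 CPM, binds prenylated proteins and is no enzyme itself.

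Both PKA catalytic subunits rose, Prkaca by 0.53 ± 0.09 (SE) and Prkacb by 0.32 ± 0.10 on the log2 scale, beside 27.6% of all genes called higher. Prkaca had 318, 274 and 278 CPM in number 1 of cocaine, yoked and saline, against 182 to 219.7 CPM with a median of 202 in the other 6, without overlap. Of the regulatory subunits, Prkar1a (1436 to 1565 CPM against 1129 to 1311 CPM) and Prkar1b (0.28 ± 0.10) were called higher and Prkar2b lower (−0.27 ± 0.10). Some calls for small changes were lost when 1 library was left out. Prkacb was lost without saline replicate 1 (adjusted p = 0.116), saline replicate 2 (0.0507) or yoked replicate 1 (0.0929), and Prkar1b without saline replicates 1 (0.0743) or 2 (0.0897) or yoked replicates 1 (0.0839) or 3 (0.0710). Prkar2b was lost without any 1 of saline replicates 1 (0.0698) or 2 (0.0905), cocaine replicates 1 (0.0819) or 3 (0.0604) or yoked replicates 1 (0.0944) or 3 (0.0759). Gng7, a gamma subunit called lower (−0.30 ± 0.11), was lost without saline replicates 1 (0.172), 2 (0.0601) or 3 (0.0830), cocaine replicate 2 (0.0712) or yoked replicates 1 (0.0728) or 3 (0.0873). Some were also lost with all 9 libraries, Prkar1b under upper-quartile scaling (0.0554), Prkar2b with no filter (0.0567) and Gng7 with no treatment term (0.0524). Over all alternatives the log2 fold changes kept their signs, at 0.28 to 0.41 for Prkacb, 0.25 to 0.32 for Prkar1b, −0.32 to −0.21 for Prkar2b and −0.36 to −0.24 for Gng7.

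**Figure D3:**
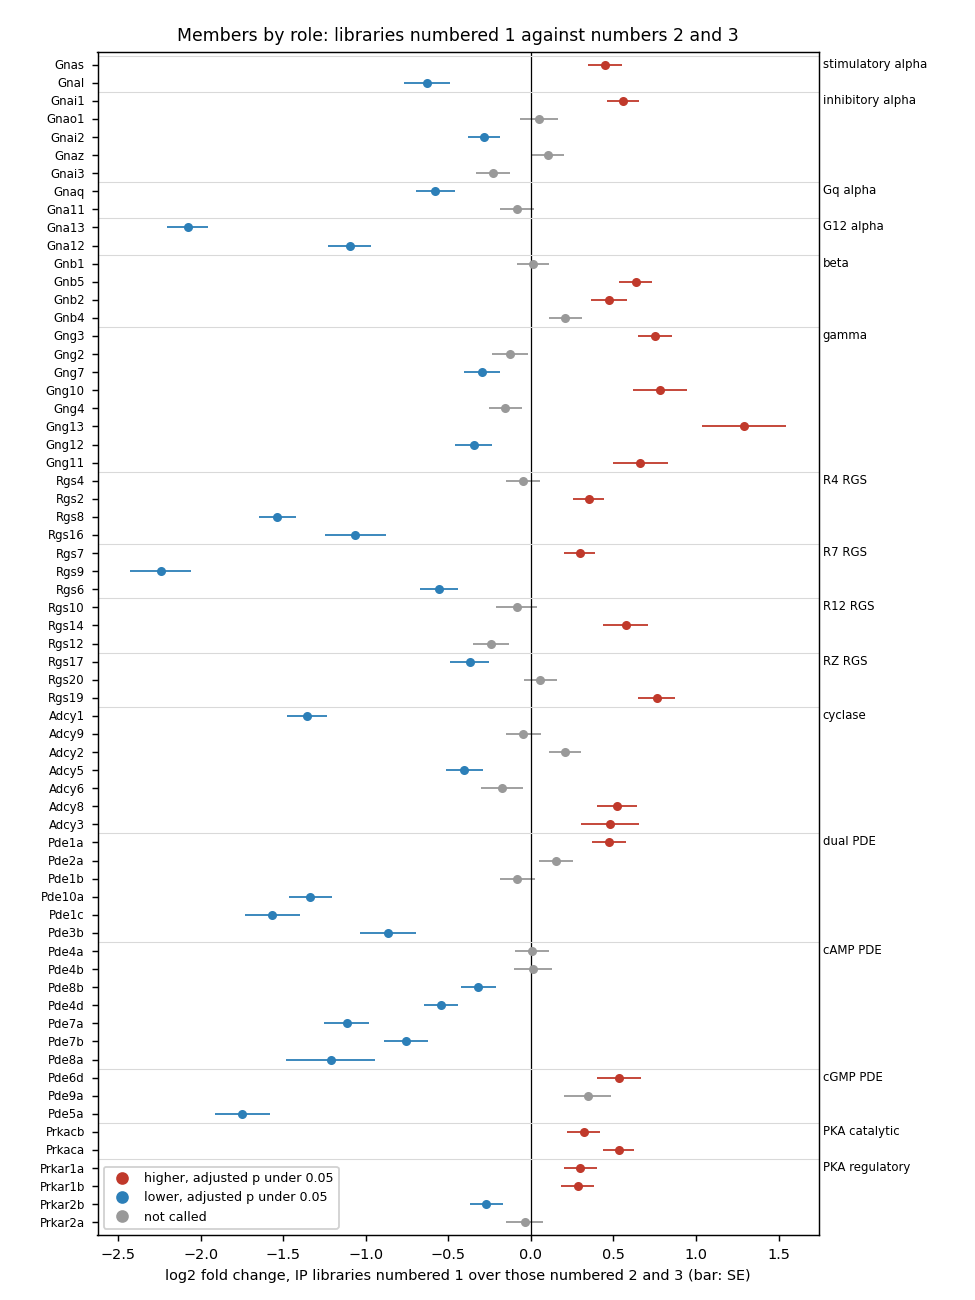
Log2 fold change of IP libraries numbered 1 over those numbered 2 and 3, with its SE, for the 65 members with a mean IP level of 5 CPM or more, grouped by role. Red marks members called higher, blue those called lower and grey those not called. Rgs9 and Gna13 lie beyond −2, and both PKA catalytic subunits lie above 0.

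**Figure D4:**
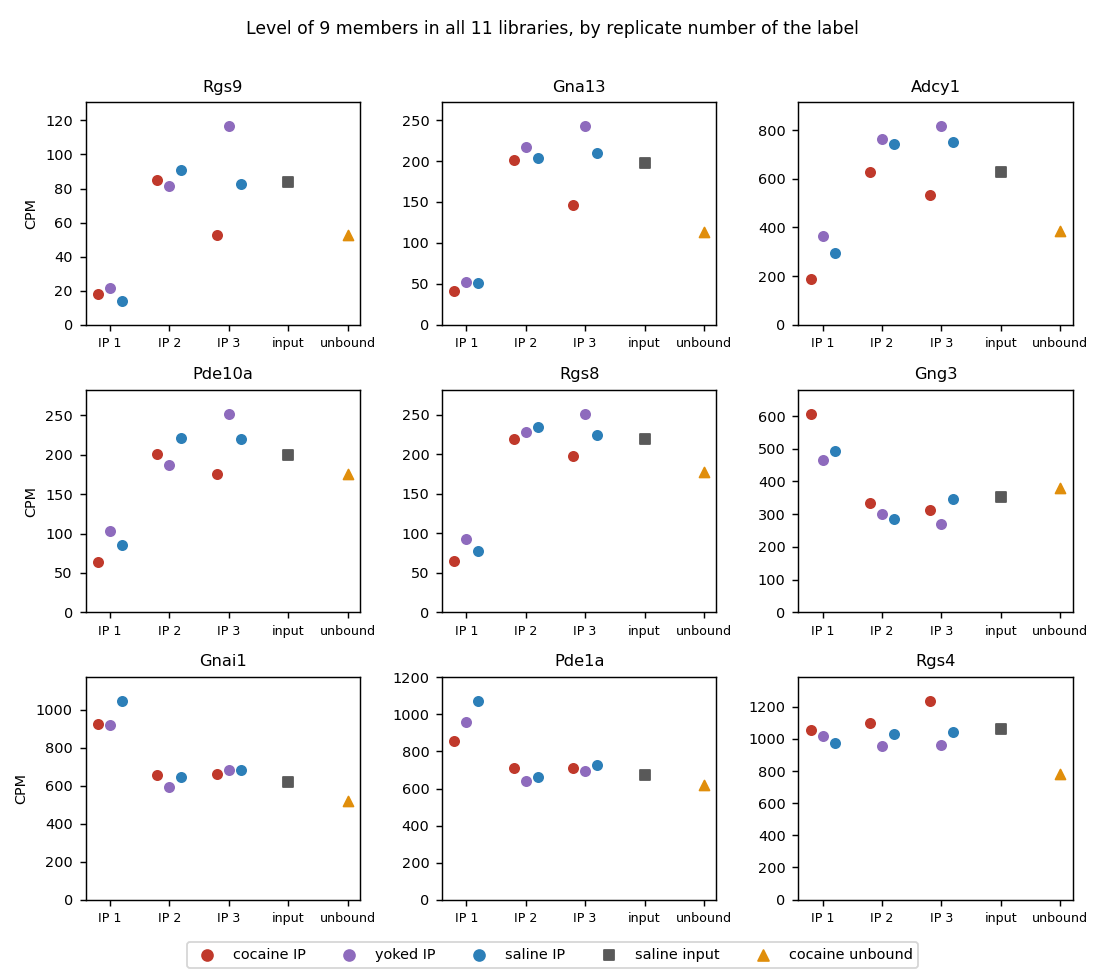
CPM of 9 members in each of the 11 libraries on linear axes from 0, with IP libraries placed by replicate number and coloured by group. In Rgs9, Gna13, Adcy1, Pde10a and Rgs8 the 3 libraries numbered 1 lie below all others, in Gng3, Gnai1 and Pde1a they lie above all others, and in Rgs4 they lie among the other IP libraries.

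The plot of single libraries shows that the direction held in each treatment group and that the input lay nearer to numbers 2 and 3 than to number 1 for the 8 genes that separated. Number 1 over numbers 2 and 3 within a group gave a member median of −0.15 in cocaine, 0.01 in yoked and −0.08 in saline. Members called lower were longer, with a median of 7748 bases of annotated exon in the 27, against 3269 in the 22 called higher and 5197 in all 79 tested. Across the 79 members Spearman's rank correlation between exon length and log2 fold change was −0.51, and across the 14529 genes tested that have a length it was −0.34. These are descriptions across genes of the same 9 libraries, and genes are not independent replicates. Other marker sums also separated number 1 from numbers 2 and 3. Markers of layers 2 to 4 summed to 753 to 843 CPM in number 1 and 947 to 994 CPM in numbers 2 and 3. Layer 6 markers summed to 117 to 147 CPM and 177 to 247 CPM. Sums of oligodendrocyte precursor, microglia and hippocampus markers were lower in number 1 without overlap too. Of 6 genes of layers 2 to 4, 1 was called higher, as were 2 of 4 hippocampus genes. Oligodendrocyte markers (8 genes) summed to 535 to 683 CPM in number 1 and 1249 to 1671 CPM in numbers 2 and 3, thalamus markers (4 genes) to 110.3 to 219 CPM and 327 to 466 CPM, and inhibitory interneuron markers (11 genes) to 553 to 710.3 CPM and 796 to 1053 CPM. Gad2 was the largest part of the interneuron sum. Of these 11 genes 9 were called lower and 2 higher, among them Reln (33.8 to 42.2 CPM against 19.7 to 25.2 CPM). Most of the thalamus sum was Rora, at 102, 205 and 190 CPM in number 1 of cocaine, yoked and saline. In that list Tcf7l2 was also lower in number 1 without overlap, while Lef1 and Prkcd overlapped. The striatal projection neuron sum overlapped, at 313 to 399 CPM in number 1 and 357 to 426 CPM in numbers 2 and 3. Of its 14 genes, however, 6 were called lower in number 1 and 1 higher, beside 27.7% and 27.6% of all genes. Drd2, Adora2a and Syndig1l were lower without overlap, and Penk, a large part of the sum, was higher without overlap. Reads on no annotated gene were 6.28% to 7.29% of entries in number 1 and 10.3% to 15.5% in numbers 2 and 3, and genes detected were 18695 to 18917 and 19639 to 20383. The part of transcript length, of these marker sums, of the layer 5, astrocyte and nuclear RNA sums given above and of these library measures in the members' changes was not tested.

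Beyond the members, 61 other genes of the pathway were in the files and 59 were tested. In each treatment contrast edgeR called 0 (1 at an unadjusted p under 0.05 in cocaine against saline, 1 in cocaine against yoked and 1 in yoked against saline), and DESeq2 called 0 of all genes. In number 1 against numbers 2 and 3, 8 rose and 24 fell, with a median of −0.20, beside the 27.6% and 27.7% of all genes. Those that fell included Rgs9bp (−3.26 ± 0.54, SE) and the transcription factor Creb1 with its coactivator Crtc3 (−1.59 ± 0.14 and −1.57 ± 0.14). Kcnj6, a potassium channel opened by beta-gamma, fell by 1.24 ± 0.12 on the log2 scale. Those that rose included Ric8, a chaperone of alpha subunits (0.75 ± 0.10), and Gucy1b3, a subunit of soluble guanylyl cyclase (0.62 ± 0.10). The plan was to describe these other genes by counts only, and those named were chosen after their values were seen.

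Saline IP over saline input asks which members were richer in pulled-down RNA. Of 70 members at 1 CPM or more on average, 0 were at least 2-fold higher in all 3 IP libraries (0.0742% of 13478 genes) and 0 at least 2-fold lower (0.0445%). edgeR over all 11 libraries, which tested 83 members, called 0 members and 0 genes (0%), with 0 members and 106 of 18070 genes at an unadjusted p under 0.05. In all 3 libraries, 11 members lay above the input (18.9% of genes) and 14 below (17.6%), and the median log2 ratio was −0.05, beside 0.00 over all genes. Replicate 1 alone had 10 members at least 2-fold lower (14.3%, beside 11.3% of genes), and replicates 2 and 3 had 0 (beside 0.26% and 0.631%). The single input has no replicate, and fraction and lane cannot be told apart.

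Gng10, a widely made gamma subunit, had the highest mean ratio. Its level was 50.9, 40.8 and 32.4 CPM in saline IP and 25.8 CPM in the input, with log2 ratios of 0.99, 0.66 and 0.33 (mean 0.66 ± 0.33, SD, n = 3). All 3 IP libraries were above the input. Gng13 (0.33 ± 0.40), Gnai1 (0.32 ± 0.39) and Rgs17 (0.28 ± 0.10) followed, and Rgs17 was above the input in 3 of 3. Rgs9 was lowest at −0.83 ± 1.51, with −2.57, 0.11 and −0.03 in replicates 1, 2 and 3. Only replicate 1 was far below the input, as also for Gna13 (−1.95, 0.04 and 0.09), Rgs16 (−1.68, −0.33 and −0.39) and Gna12 (−1.38, −0.12 and −0.40), of which the last 2 were below it in all 3.

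Cocaine IP over cocaine unbound sets pulled-down RNA against the RNA that stayed behind. Of 71 members, 0 were at least 2-fold higher in all 3 IP libraries (0.399% of 13527 genes) and 1 was at least 2-fold lower (2.21%). In all 3, 25 lay above the unbound library (31.8% of genes) and 14 below (25.7%), with a median of 0.04, beside 0.05 over all genes. The 1 was Rgs10, an R12 class regulator best known from microglia and other immune cells. It was at 29.4, 32.3 and 24.8 CPM in cocaine IP and 88.8 CPM in the unbound library, and at 22.7 CPM in the saline input. The log2 ratios were −1.58, −1.43 and −1.81, with a mean of −1.61 ± 0.19 (SD, n = 3). The unbound library was the highest of all 11 for Rgs10 and the input lay with the IP libraries. With edgeR over all 11 libraries its log2 fold change was −1.62 ± 0.32 (SE; adjusted p = 0.178), and 0 of 83 members were called, beside 10 of 18070 genes (0.0553%). At an unadjusted p under 0.05 there were 15 members (18.1%), beside 10.3% of genes. Summed microglia markers (7 genes, on low levels) were 19.2 to 29.9 CPM in cocaine IP, 29.0 CPM in the unbound library and 31.5 CPM in the input. Other sums differed more. Nuclear noncoding RNA was at 179 to 5240 CPM in cocaine IP and 15525 CPM in the unbound library, of which Malat1 made up 12740 CPM. Malat1, Meg3 and Snhg11 were higher in unbound than in all 3 cocaine IP libraries. Neat1, at 6.34 CPM in unbound, was below cocaine replicates 2 and 3 (76.5 and 46.4 CPM). Miat, at 92.7 CPM in unbound, was below cocaine replicate 2 (112 CPM). Oligodendrocyte markers were at 636 to 1671 CPM in cocaine IP and 2205 CPM in the unbound library. Interneuron markers were at 595 to 1053 CPM in cocaine IP and 1299 CPM in the unbound library, and striatal markers at 389 to 426 CPM and 517 CPM. The part of any of these in the unbound comparison was not tested. Reads that fell on several genes made up 7.34% of entries in the unbound library and at most 1.91% in the others. The unbound library also held the fewest counts in genes (20926712), and its label number stands apart from the run of the others. It has no replicate, and fraction, lane and library cannot be told apart.

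Among members that did not meet the 2-fold rule, Rgs14 was at 1.23 ± 0.58 (log2, SD, n = 3) and Prkar1b at 0.94 ± 0.22, both above the unbound library in 3 of 3. Prkar1b had 829.7, 609 and 703 CPM in cocaine IP and 374 CPM in the unbound library. The other 10 libraries were all above the unbound one in Prkar1b. Chosen after their values were seen, Gnb2 (1.09 ± 0.42) and Gna11 (0.77 ± 0.07) were also above it in all 3, and Pde3b (−1.17 ± 0.49), Rgs17 (−1.06 ± 0.39) and Pde5a (−0.90 ± 1.20) below it in all 3. Rgs17 had 184, 307 and 275 CPM in cocaine IP, 527 CPM in the unbound library and 275 CPM in the input. Rgs4 was at 0.55 ± 0.12, Rgs2 at 0.53 ± 0.23, Gnai1 at 0.53 ± 0.28 and Pde2a at 0.50 ± 0.06, each above the unbound library in 3 of 3. For Adcy1, Pde10a and Rgs9 replicate 1 was below the unbound library and replicates 2 and 3 above it (−1.03, 0.73 and 0.49, −1.44, 0.22 and 0.03 and −1.52, 0.71 and 0.03).

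**Figure D5:**
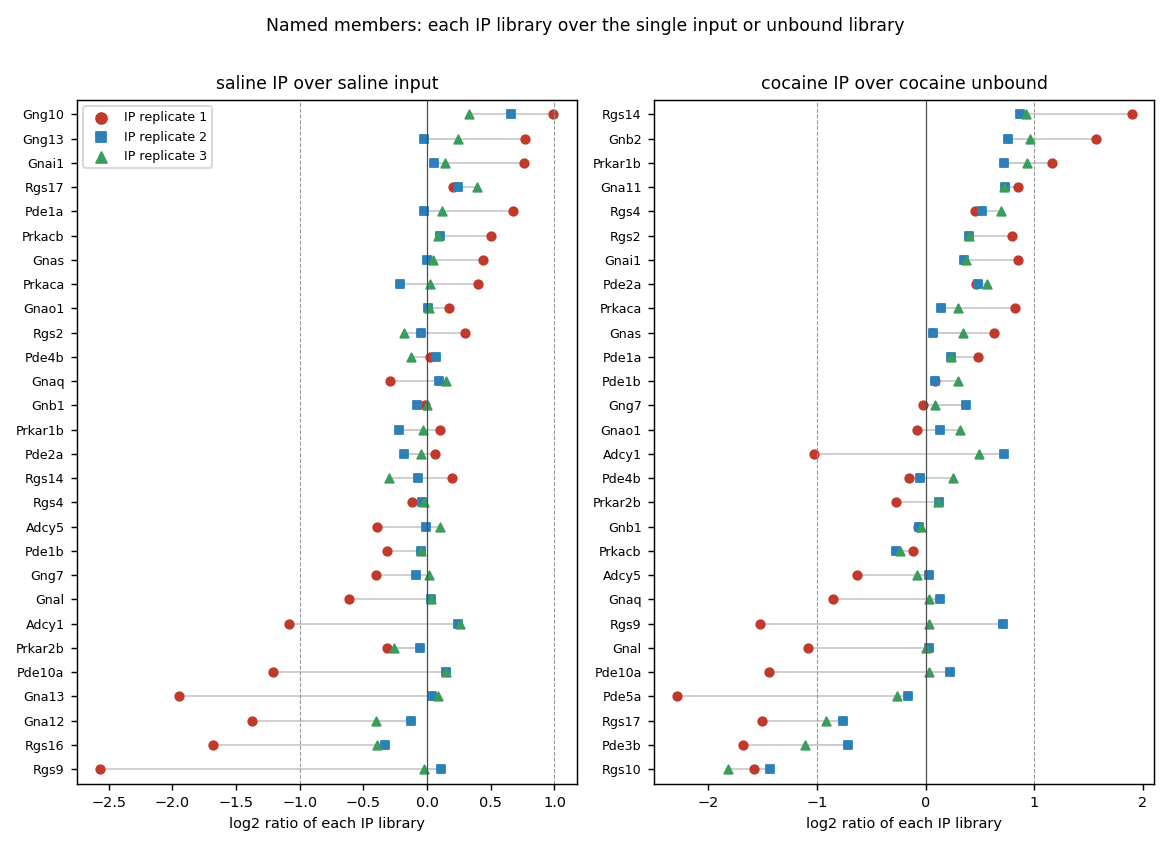
Log2 ratio of each IP library over the single input library (left, saline) and over the single unbound library (right, cocaine) for the named members, 1 line per gene. Symbols are the 3 IP replicates, and dashed lines mark 2-fold. For the input, replicate 1 runs to both ends while replicates 2 and 3 stay between the dashed lines, and for unbound all 3 symbols of Rgs10 lie beyond the lower one.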

How the data were processed

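The authors deposited raw counts per gene, with a file for each library, made with STAR 2.0.0e on mm10 and HTSeq per the submitters' processing notes. The HTSeq version, annotation and strand setting are not given in those notes. In genes were 44.9% to 52.5% of entries, and library sizes used these alone. Reads aligned to several places (28.3% to 47.0%) went uncounted, which lowers close paralogs and genes with pseudogenes. Counts carry no molecular identifiers. Exons of 28 members overlap another annotated gene.

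The 9 IP libraries were fitted as 3 group means in edgeR 4.0.16 (R 4.3.3) with TMM scaling, filterByExpr, robust quasi-likelihood tests and Benjamini-Hochberg adjustment over 16417 genes at 0.05. Replicate number was tested with treatment as a term. CPM are TMM-scaled over 11 libraries. Fraction ratios used a prior count of 2, a mean of at least 1 CPM and a rule of 2-fold in all 3 libraries, with no p. Exon lengths and positions are from GENCODE M21 (GRCm38). The code was tested on simulated data.

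The members, lists and contrasts were chosen with earlier results of these data known. Fold changes are given for a fixed list of 22 members, every member called in treatment contrasts and fractions, the 3 highest and lowest per treatment contrast, the 8 highest and lowest called by number, and the 4 highest and lowest over input, each at 5 CPM or more. Outside this rule they are given for members with a response element match in cocaine against saline. Some members over unbound and the named non-member genes of the pathway were added after their values were seen. Labels give each number the same index sequence in every group but state no pairing. Deviations from the group means correlated at 0.48 to 0.86 over 9 pairs of libraries with the same number. Over 18 pairs with unlike numbers they ran from −0.80 to 0.70. Pairs of libraries numbered 1 correlated at 0.80 to 0.86, and pairs of a library numbered 1 with another number at −0.80 to −0.56. Among numbers 2 and 3 the ranges of same and unlike numbers overlap. The replicate block is therefore an assumed pairing, which the values do not establish for numbers 2 and 3. Alternatives were DESeq2 1.42.0, other scalings and filters, the block, and leaving out libraries.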

Additional observations from a re-analysis of the deposited data

How the results depend on the processing

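With the number as a replicate block, an assumed pairing, 0 members were called in each treatment contrast. Members at an unadjusted p under 0.05 were then 4 (5.06%, beside 12.3% of all genes) for cocaine over saline, 16 (20.3%, beside 18.3%) for cocaine over yoked and 0 (beside 3.0%) for yoked over saline. DESeq2, upper-quartile scaling, no filter, Rn45s left out, the 3 libraries numbered 1 left out and each library left out in turn also gave 0 members and 0 genes in these contrasts. The member median of cocaine over saline ran from −0.071 to 0.018 when 1 library was left out. For number, leaving out 1 library gave 32 to 41 members over both degrees of freedom (40 with all), 15 to 22 higher and 20 to 26 lower. For saline IP over input the median was −0.12 without TMM scaling and −0.056 to −0.021 with 1 library left out. For cocaine IP over unbound, 3 members met the 2-fold rule without cocaine replicate 1, 5 without replicate 2 and 1 without replicate 3, as 2 libraries are easier to satisfy than 3, and edgeR over all 11 libraries gave 0. In number 1 against numbers 2 and 3, 33 named members were followed through these alternatives, and no called value among them changed sign. Other called members, such as Gna12, Adcy8, Pde6d and Prkar1a, were not followed 1 by 1. Of the 10 members below the filter over 9 libraries, 4 passed it over 11.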
